A study of Homo sapiens with 12 samples.

Results

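Libraries of HCT116 cells carrying the construct named scramble (n = 3) were compared with libraries of cells carrying the mCherry control (n = 3). HCT116 is a long-established line of human colorectal carcinoma with epithelial character. Every gene with at least 10 reads in at least 3 of these 6 libraries was a member, which gave 15024 of the 63677 Ensembl identifiers in the deposited table. The series also holds 3 libraries with a construct named reverse and 3 with CR3, which the submitters describe as a peptide that disturbs condensates. Their levels are set beside the members, scramble and mCherry were each also tested against reverse, and all 12 libraries entered the model behind every p-value. Scramble and reverse were compared with the same 3 mCherry libraries, so a deviation of those libraries enters both differences. Reverse against mCherry is therefore no independent second comparison, here and below. All 12 libraries came from cells given doxycycline (1 ug/ul in the labels) in DMEM with 10% fetal calf serum, and polyA RNA was sequenced with a stranded kit. The submitters call the cells clones. Whether a group is 1 clone or several, and whether its libraries came from separate cultures, is stated nowhere in the labels, so p-values measure the spread between these libraries, which may be technical. The protein sequence of the scramble construct is not given either.

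A scrambled or reversed version of a peptide usually serves as a control that keeps the amino acids and changes their order, and mCherry, a red fluorescent protein, serves as a control without the peptide. Doxycycline is the drug that switches on tetracycline-controlled constructs. It is also known to inhibit protein synthesis in mitochondria, and all 12 libraries share it.

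Depth was similar in the 6 libraries, 18562609 to 23565841 reads assigned to genes. A level below is in normalized reads, meaning whole reads scaled for library size by the submitters. Replicate 3 of mCherry stood apart: the chi-square over degrees of freedom against the other mCherry libraries was 8.36 and 9.99, whereas it was 2.76 between those and 3.01 to 3.12 between scramble libraries. On the first principal component, with 49.9% of the variance, mCherry lay from -21.6 to -17.3 and scramble from 19 to 21.3, and the second put mCherry replicate 3 at -23.9 and its partners at 10.4 and 11.1. Of the colon epithelium markers, EPCAM, CDH1, KRT8, KRT18, KRT19 and CDX2 were tested and 0 of these 6 were called. CDH17 had no read in the 6 libraries, and CDX1, VIL1, LGALS4 and GPA33 were below the filter. The summed level of the 11 epithelial markers was 55900 to 62816 in mCherry and 57795 to 60944 in scramble. The 9 mesenchymal markers summed to 943 to 1183 and 947 to 991, with VIM, ZEB1 and COL1A1 tested and not called. The 6 blood markers summed to at most 11.5 in both groups, with PTPRC and HBB at 0, and the 6 neural and kidney line markers found in the table to at most 18.8, with STMN2 at 0.

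Few genes were called between scramble and mCherry cells, but some of these differed by an order of magnitude or more. Of 14617 genes tested, 124 were higher in scramble (0.848%) and 113 lower (0.773%), 237 in all (1.62%), by limma with a mean-variance trend at a Benjamini-Hochberg adjusted p under 0.05. The other 407 members had a value whose size could not be settled and were not tested. An unadjusted limma p under 0.05 was reached by 2191 of the tested genes (15%), so the calls need not include every gene that differs. The called increases consisted of a few very large ones and many small ones. Of the 124, 21 were at least 4-fold and 99 under 1.5-fold higher, with a median log2 difference of 0.27. Of the 113 lower genes, 31 were at least 4-fold and 53 under 1.5-fold lower, with a median of -0.64. Over all tested genes the median was -0.003 and the quartiles -0.10 and 0.08. All 237 called genes had libraries that did not overlap between the groups, as had 2873 of the tested genes (19.7%), with scramble above in 10.3% and below in 9.32%. Here and below, at least 4-fold means 2 log2 units or more. Leaving out 1 of the 6 libraries at a time, 19 of the 21 and 28 of the 31 stayed called in all 6 fits, against 1 of the 99 and 11 of the 53 small ones. Without mCherry replicate 3 the calls numbered 453 higher and 383 lower. Without any one of the other 5 libraries they numbered 25 to 48 and 59 to 78.

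**Figure D1:**
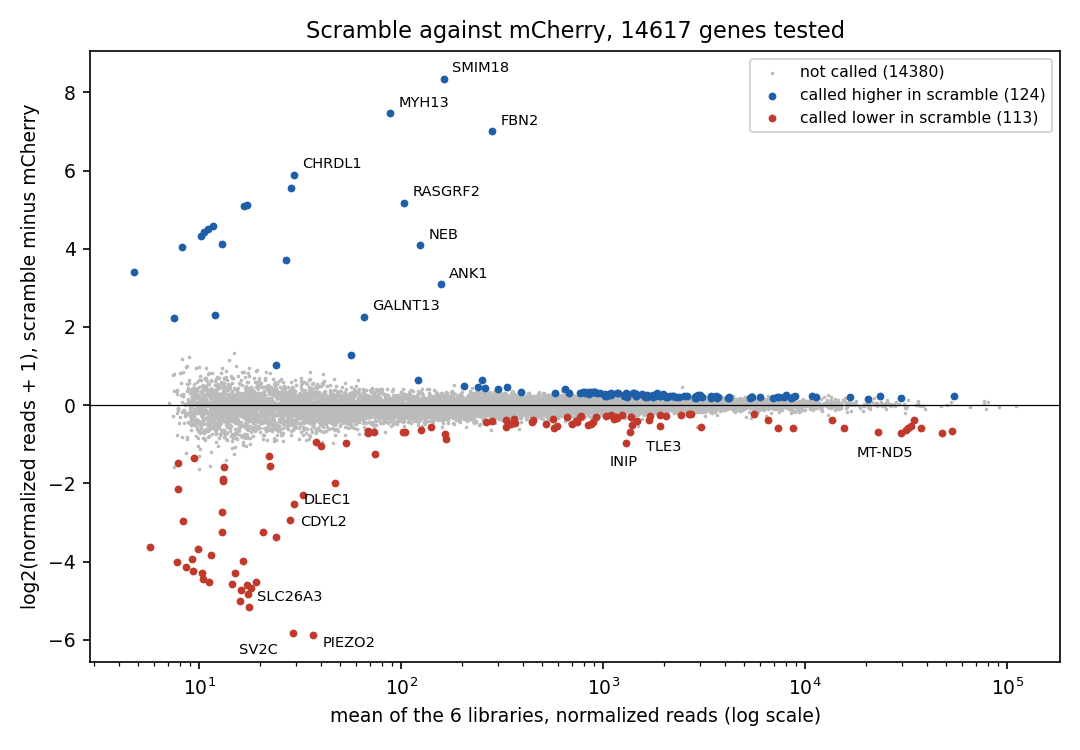
Each point is 1 of the 14617 tested genes, with the mean of the 6 libraries in normalized reads on a log axis and the difference between scramble and mCherry on the log2(normalized reads + 1) scale. The 124 higher genes (blue) and 113 lower genes (red) form wings of genes of low mean that differ by 2 log2 units or more and a thin rim of abundant genes that differ by much less.

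Several genes had well over 100 normalized reads in scramble and few or none in mCherry. MYH13, a myosin heavy chain known from the muscles that move the eye and larynx (ENSG00000006788, GRCh38 chromosome 17, 10300865 to 10373130), had 170, 184 and 176 normalized reads in the scramble libraries and no read in any mCherry library. The floor of 3 reads per library makes it at least 59.9-fold higher (limma adjusted p = 2.8e-09). NEB, which encodes nebulin, the giant protein along the thin filaments of the sarcomere (chromosome 2, 151485336 to 151734487), stood at 253, 251 and 199 in scramble and at 9.4, 12.6 and 17.1 in mCherry, 18-fold apart with a log2 difference of 4.10 ± 0.29 (SE, adjusted p = 1.1e-08). SMYD1, a lysine methyltransferase of heart and skeletal muscle (chromosome 2, 88067780 to 88113387), had 62.3, 47.7 and 60.5 in scramble and 1 read in all mCherry libraries together. Its ratio was 175, with an exact 95% counting interval of 31.1 to 6963 that covers counting error only. No library of one group reached any library of the other for these genes. All 3 are best known from striated muscle, which was noted after their values were seen, and no muscle list was tested. Not all sarcomere genes shared the difference. TTN (442 in mCherry and 502 in scramble, limma adjusted p = 0.75) and MYH3 (39 and 46.7, 0.69) were not called.

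The highest scramble level among the genes at least 4-fold higher belonged to FBN2, which encodes fibrillin-2, a protein of extracellular microfibrils (ENSG00000138829, chromosome 5, 128257909 to 128659185). It measured 544, 550 and 592 normalized reads in scramble and 4.18, 4.21 and 2.13 in mCherry, a 160-fold difference (SE 0.30 on the log2 scale, limma adjusted p = 6.4e-12). CHRDL1, a secreted antagonist of bone morphogenetic proteins, had no read in mCherry and 54.7, 58.9 and 62.2 normalized reads in scramble, at least 19.8-fold higher. SCG2, the granule protein secretogranin II, was 2.44-fold higher, at 78.6, 85.1 and 76.3 against 40.7, 27.8 and 29.9 (adjusted p = 0.002). GALNT13, an enzyme that starts O-linked glycan chains, was 4.81-fold higher, at 102 to 112 against 14.6 to 27.7.

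SMIM18, a small membrane protein of little known function (ENSG00000253457, chromosome 8, 30638600 to 30646064), had 326, 339 and 312 normalized reads in the scramble libraries and no read in mCherry, reverse or CR3. It was at least 110-fold higher (limma adjusted p = 2.0e-10). RASGRF2, a calcium-dependent exchange factor that loads Ras and Rac with GTP (chromosome 5, 80960672 to 81230156), measured 222, 212 and 171 against 4.18, 4.21 and 5.33, a 44.1-fold difference. ANK1, the ankyrin that ties the spectrin skeleton to the membrane, best known from red cells, measured 281, 299 and 265 against 42.8, 31.1 and 24.5, 8.58-fold. In each of these genes the lowest scramble library lay well above the highest mCherry library. The remaining genes named by size were at most 1.57-fold higher. Of these, CPA4, a carboxypeptidase (186 to 202 in mCherry, 281 to 339 in scramble, adjusted p = 0.0013), stayed called whichever library was left out. FHIT, C17orf53, GAB1 and TRMT61A (1.38- to 1.57-fold) kept their call in only 1 or 2 of the 6 such fits.

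The same genes were low in the libraries with the reverse construct. There, SMIM18, CHRDL1 and SMYD1 had no read, MYH13 averaged 0.3, FBN2 4.04 ± 1.94 (SD, n = 3), RASGRF2 5.50 ± 2.16, NEB 20.9 ± 1.95, ANK1 28 ± 8.32, GALNT13 22.7 ± 3.52 and SCG2 30.1 ± 5.98 normalized reads. Scramble was above reverse in each of these 10 genes by the limma test of that difference, with adjusted p-values from 8.7e-12 for FBN2 to 0.0014 for SCG2. The genes were picked for high levels in the same scramble libraries, which favours that outcome, so these p-values are no independent support. SMIM18, MYH13, CHRDL1, SMYD1, FBN2 and RASGRF2 passed the read filter through the scramble libraries alone. In scramble against reverse, 42 of all tested genes were called (0.287%), 0.164% higher and 0.123% lower in scramble. GAB1, the docking protein of receptor tyrosine kinases, was also higher than in reverse (176 ± 13.3 there and 279 ± 30.2 in scramble, adjusted p = 0.0059). CR3 libraries, set beside these, held 258 ± 80.2 of FBN2, 76.9 ± 8.82 of ANK1, 75.6 ± 8.53 of GALNT13, 28.4 ± 3.05 of RASGRF2 and 23.9 ± 1.43 of CHRDL1, and no read of SMIM18, MYH13 or SMYD1.

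The promoters of these genes ranged from CpG-rich to CpG-poor. The stretches below precede the RefSeq start site of a gene (build GRCh38.p14), are written 5′ to 3′ on the gene's strand and were cut short where an exon of GENCODE 29 begins. They are shown because they span that range, and capitals mark each CpG, the dinucleotide that carries DNA methylation. FBN2 (chr5:128538246-128538495, minus strand) has 25 of them, RASGRF2 (chr5:80960113-80960362, plus strand) 34, SMYD1 (chr2:88067575-88067779, plus strand) 2 and PIEZO2 (chr18:11149570-11149819, minus strand), a gene lower in scramble, 29.
FBN2: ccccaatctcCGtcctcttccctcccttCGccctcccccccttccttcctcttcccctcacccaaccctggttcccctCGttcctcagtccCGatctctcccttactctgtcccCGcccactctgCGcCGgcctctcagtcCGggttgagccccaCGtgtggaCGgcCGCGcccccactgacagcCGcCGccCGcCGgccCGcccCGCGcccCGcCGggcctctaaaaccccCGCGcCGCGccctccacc
RASGRF2: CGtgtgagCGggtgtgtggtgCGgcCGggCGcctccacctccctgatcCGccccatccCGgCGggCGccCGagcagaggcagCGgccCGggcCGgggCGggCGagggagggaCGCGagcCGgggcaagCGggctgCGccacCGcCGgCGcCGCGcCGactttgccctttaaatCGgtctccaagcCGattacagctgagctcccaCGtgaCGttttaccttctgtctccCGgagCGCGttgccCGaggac
SMYD1: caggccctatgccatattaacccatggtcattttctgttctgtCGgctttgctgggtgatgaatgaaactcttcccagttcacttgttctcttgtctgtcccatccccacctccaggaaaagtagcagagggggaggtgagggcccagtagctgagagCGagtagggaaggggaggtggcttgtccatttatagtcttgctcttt
PIEZO2: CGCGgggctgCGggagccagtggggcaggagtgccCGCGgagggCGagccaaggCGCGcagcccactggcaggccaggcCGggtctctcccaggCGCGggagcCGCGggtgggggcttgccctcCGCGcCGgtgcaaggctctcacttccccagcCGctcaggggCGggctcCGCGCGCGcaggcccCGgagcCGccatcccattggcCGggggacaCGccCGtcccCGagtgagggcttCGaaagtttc

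In the 250 bases before the start site, the median number of CpGs was 18 for the 15 genes at least 4-fold higher in scramble that have an entry in the RefSeq table, with quartiles of 2.5 and 26. It was 4.5 for the 20 at least 4-fold lower that have one (quartiles 3 and 14.8), and 21 (quartiles 14 and 28) for the 10252 tested genes that have one. The words TATAAA or TTTATA, the core of the TATA box on either strand, stood in 3 of the 15, 2 of the 20 and 5.09% of the 10252. These are counts of letters in a window of fixed length. Methylation was not measured in these libraries.

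Other genes had reads in mCherry and few or none in scramble, and of the 31 at least 4-fold lower 2 averaged 10 normalized reads or more in reverse. The 31 were picked for high levels in the same mCherry libraries, which favours lower levels in any other group, so the reverse levels are no independent support. PIEZO2, SV2C and SLC26A3 passed the read filter through the mCherry libraries alone. In reverse against mCherry, 75 of all tested genes were called (0.513%), 0.109% higher and 0.404% lower. PIEZO2, a mechanically gated ion channel of touch-sensing neurons and Merkel cells (ENSG00000154864, chromosome 18, 10666483 to 11148762), had 70, 62.2 and 85.3 normalized reads in mCherry and 1 read in the 3 scramble libraries together. Its ratio was 233, with an exact 95% counting interval of 41.4 to 9250.04, and the limma adjusted p was 9.3e-07. SV2C, a synaptic vesicle glycoprotein (chromosome 5, 76083172 to 76353939), stood at 39.7, 83.3 and 51.2 in mCherry and had no read in scramble, at least 21-fold lower. SLC26A3, the chloride and bicarbonate exchanger of the colon surface (chromosome 7, 107765467 to 107803225), stood at 40.7, 29.4 and 35.2 in mCherry and had no read in scramble, reverse or CR3. It was the 1 called gene among the 5 tested members of the list of intestinal and colon markers. CDX2, the homeobox factor of that lineage (314 ± 30.4 in mCherry and 360.5 in scramble, adjusted p = 0.41), HNF4A and KRT20 did not pass.

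ATP6V0A4, a subunit of the proton pump of acid-secreting cells, averaged 44.1 ± 10.2 in mCherry and 3.62 ± 2.22 in scramble, 12.2-fold lower. CDYL2, a chromodomain protein, measured 49.1, 51.3 and 49.1 against 3.84, 10.3 and 4.38, 8.08-fold lower, and was far higher in CR3, at 176 ± 19.5. DLEC1, a ciliary protein that is often silenced in tumours, was 6.35-fold lower, NCKAP1L, a blood cell member of the actin-regulating WAVE complex, 4.79-fold, and CREB3L1, a membrane-bound transcription factor of secretory cells, 4.16-fold (75.7 ± 9.96 and 18.2 ± 2.52). EGF, the ligand of the epidermal growth factor receptor, averaged 54.2 ± 9.41 and 25.9 ± 3.91, 2.09-fold lower (adjusted p = 0.029), and its call was lost without 4 of the 6 libraries. In reverse the averages were 0 for PIEZO2, 0.6 for SV2C, 3.94 for ATP6V0A4, 6.77 for CDYL2, 8.12 for DLEC1, 11 for NCKAP1L, 15.7 for CREB3L1 and 17 for EGF. For these 8 genes the limma adjusted p of scramble against reverse lay between 0.68 and 0.998, which does not show that the levels are equal. No mCherry library of these genes overlapped a scramble library.

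**Figure D2:**
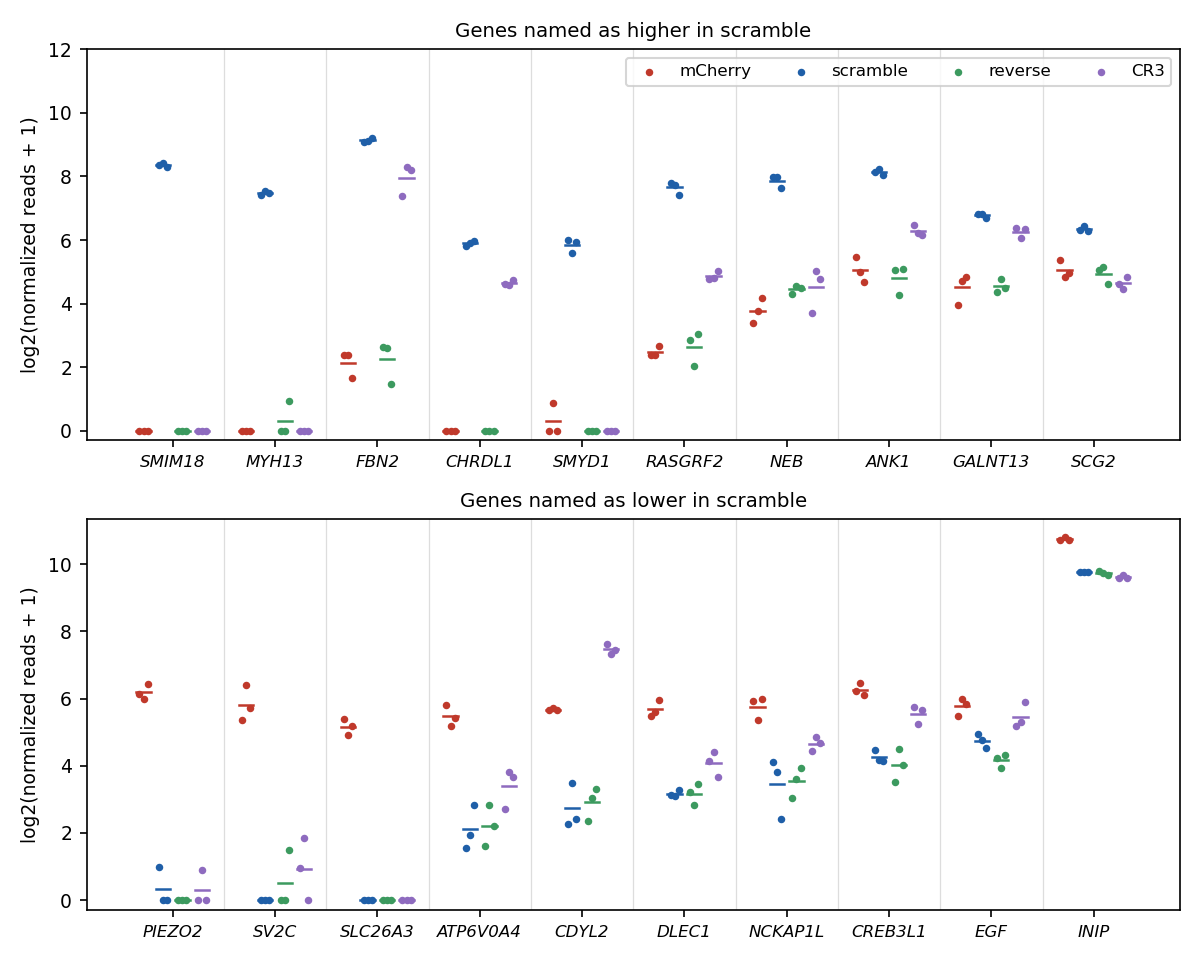
Each point is 1 library on the log2(normalized reads + 1) scale, with short bars for the group means, for 10 genes named as higher in scramble (top) and 10 named as lower (bottom). The top genes are high in scramble and near the mCherry level in reverse, whereas the bottom genes are higher in mCherry than in scramble and reverse.

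How the digits were read bears on several of these values. The table has lost its decimal marks, so a power of 10 had to be chosen for each value with the group labels. When it was chosen without them, which favours 1 level per gene, RASGRF2, ANK1, GALNT13, CDYL2 and DLEC1 changed direction and FBN2, NEB, ATP6V0A4 and NCKAP1L lost their call. SMIM18, MYH13, CHRDL1, SMYD1, SCG2, SV2C, SLC26A3 and CREB3L1 kept theirs, and PIEZO2 could not be tested that way. A value of 0 is certain in either reading. A single read is certain only in libraries where 1 read is worth under 1 normalized read, which keep the mark: mCherry replicate 2 and the 3 scramble libraries among the 6. The single reads of SMYD1 in mCherry and of PIEZO2 in scramble lie in such libraries. A low group could stand 10 times higher only if its counts in all 3 libraries were multiples of 10.

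The remaining large differences were in genes of low level. Of the 21 genes at least 4-fold higher, 18 were protein-coding, 11 had no read in mCherry and 10 had none in reverse, and they lay on 11 chromosomes. Their means reached from 9.55 to 562 in scramble, with a median of 34.4, and at most 32.8 in mCherry and 28 in reverse. CA1, a carbonic anhydrase of red cells and colon (33.3 ± 4.6 in scramble), BPIFA2, a secreted salivary protein (34.4 ± 8.44), and HGF, the ligand of the MET receptor (21 ± 6.1), had no read in mCherry and none in reverse. ITIH5, which binds hyaluronan (23.5 ± 5.41), had none there either, and TMEM108 (20.3 ± 8.58) had none in mCherry. Of the 31 genes at least 4-fold lower, 27 were protein-coding, 10 had no read in scramble and 16 none in reverse. Their means were 11.4 to 72.5 in mCherry, with a median of 29.6, and at most 11.3 in scramble. NRXN3, a neurexin of synapses (22.3 ± 3.48 in mCherry), and ESR1, the oestrogen receptor (17.1 ± 5.12), had no read in scramble or reverse. XDH, xanthine dehydrogenase (28.7 ± 2.87), and PCDH9, a protocadherin (19 ± 2.67), had 1 and 2 reads in scramble. RELN, the secreted reelin, was the exception in reverse: 13.2 ± 4.59 in mCherry, 2.4 ± 1.77 in scramble and 212 ± 25.8 in reverse. The genes of this paragraph other than those the size rule names were picked after their values were seen. Summed over its members, the higher set took 83.3 to 87.5 normalized reads per mCherry library, 2195 to 2389 in scramble and 91.7 to 103 in reverse. The lower set took 925 to 1023, 48 to 48.6 and 237 to 287. The gap between mCherry and scramble in these sums follows from choosing the sets by the same libraries. Genes without a read in mCherry or in scramble passed the read filter through the other group alone.

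Genes near those with large differences were also examined. Within 500 kb of the start sites of the 21 genes at least 4-fold higher lay 117 other tested genes, and 0 of them were called by limma, with 16 at an unadjusted p under 0.05 (13.7%, against 15% of all tested genes). Their median log2 difference was 0.03, with quartiles of -0.05 and 0.09, against -0.003 over all tested genes. Within the same distance of the 30 lower genes that have a position lay 175 tested genes, of which 1 was called (0.57%, where 1.62% of all tested genes were), IARS near ASPN, the 20 at an unadjusted p under 0.05 being 11.4%. GTF2E2, a subunit of a general transcription factor whose start lies 19 kb from that of SMIM18, averaged 1554 in mCherry and 1615 in scramble. GSR, glutathione reductase, 89 kb away, averaged 4761 and 4901. Of the 8 tested neighbours of SMIM18, 0 were called and 1 had an unadjusted p under 0.05. Near ANK1, 9 neighbours lay between -0.25 and 0.18 on the log2 scale, with 0 called and 2 at an unadjusted p under 0.05.

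**Figure D3:**
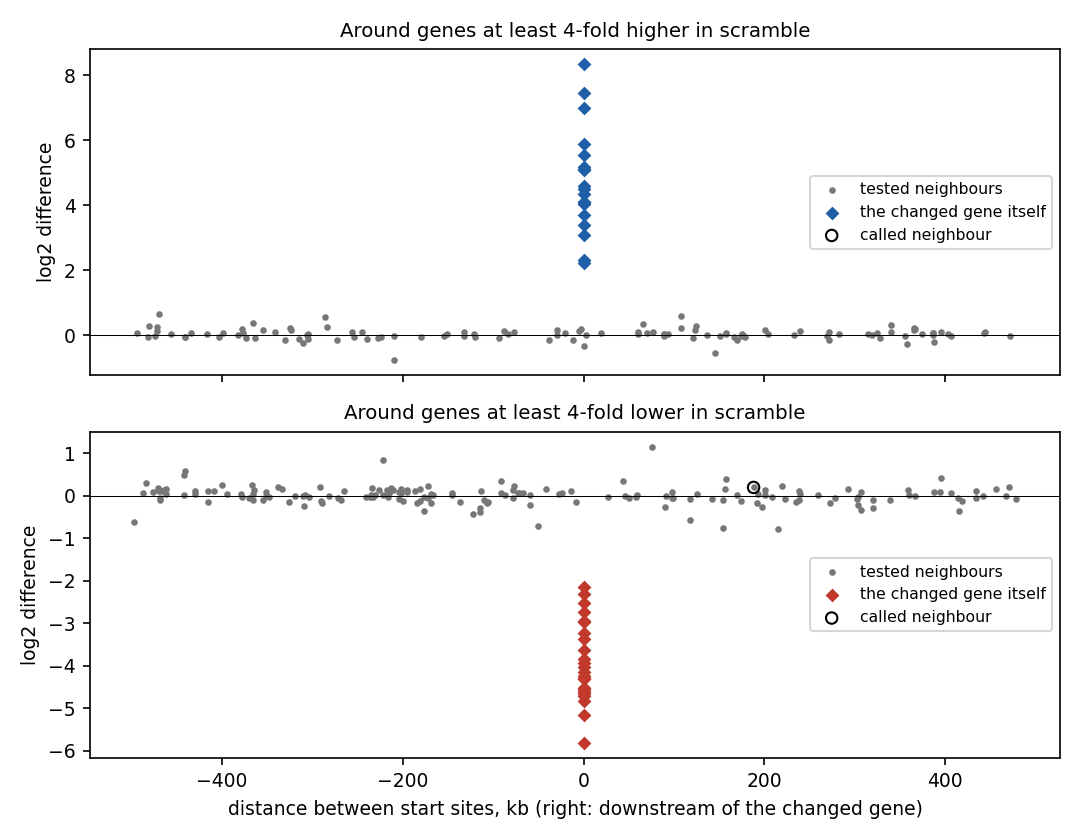
Each grey point is a tested gene within 500 kb of a gene at least 4-fold higher (top) or lower (bottom) in scramble, by distance between start sites in kb and log2 difference from mCherry, and diamonds are the changed genes that have a tested neighbour. The diamonds lie at 2 log2 units or more from 0 while the neighbours scatter around 0, with 1 called neighbour circled in the lower panel.

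Among genes with a mean of 1000 normalized reads or more, INIP had the smallest adjusted p. It encodes a subunit of the SOSS complex, which binds single-stranded DNA at breaks (ENSG00000148153, chromosome 9, 112683926 to 112718236). It measured 1669, 1783 and 1700 normalized reads in mCherry and 879, 876 and 874 in scramble, 1.96-fold lower (log2 -0.97 ± 0.06, SE, limma adjusted p = 9.1e-10). The level in reverse was 855 ± 35.8 and in CR3 788 ± 29.4, so that mCherry was the highest of the 4 groups. The 7 tested neighbours of INIP within 500 kb lay between -0.08 and 0.15 on the log2 scale, with 0 called and 0 at an unadjusted p under 0.05. TLE3, a Groucho-type corepressor of Wnt and Notch target genes, was also highest in mCherry: 1731, 1772 and 1503 in mCherry, 1034, 1017 and 1060 in scramble, 1072 ± 63.6 in reverse and 1052 ± 82.4 in CR3 (log2 -0.68 ± 0.07, adjusted p = 4.7e-06). SAMD5, whose mean lay under 1000, was lower in scramble too (832 ± 31.5 in mCherry, 629 ± 38 in scramble and 636 ± 48.3 in reverse).

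Other moderate decreases also stayed called in all 6 fits that leave out a library. GPM6A, a neuronal membrane glycoprotein, averaged 214 ± 14.6 in mCherry and 118 ± 9.03 in scramble. SOX9, a transcription factor of intestinal progenitors and a target of Wnt signalling, measured 658, 724 and 667 against 466, 472 and 434 (log2 -0.58 ± 0.10, SE, limma adjusted p = 0.0023). It was the only called gene of the 13 tested Wnt targets, where 0.773% of all tested genes were called lower. Of the 13 differences 12 were negative, with a median of -0.11. By limma 2 had an unadjusted p under 0.05 (15% of all tested genes had). AXIN2 (413 ± 34.3 and 371 ± 45.9, adjusted p = 0.49), RNF43 and NKD1 did not pass. SESN3, a sestrin that restrains mTORC1 and is induced by FOXO factors, averaged 694 ± 18.2 and 480 ± 33.6 and was also below reverse (610 ± 46.3, adjusted p = 0.043). PNRC1, a nuclear receptor coactivator, averaged 987 ± 91.8 and 694 ± 52.5. TLE3, SAMD5, SESN3 and PNRC1 were picked after their values were seen. HLA-DPA1, a class II antigen-presenting chain (49.9 ± 4.89 and 25.6 ± 2.56), kept its call in 5 of these fits and RNF128, an E3 ubiquitin ligase (204 ± 20.8 and 125 ± 28), in 4.

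Of the 13 messages of the mitochondrial genome, 12 fell in scramble and none rose, against 0.773% of all tested genes that were called lower. This genome encodes 13 subunits of the respiratory chain and ATP synthase, which are transcribed as long precursors from both strands and cut apart. The median log2 difference was -0.59. They made up 2.05% ± 0.04 (SD, n = 3) of all reads in mCherry, between 2.02% and 2.09% in its libraries, and 1.34% ± 0.19 in scramble, at 1.55%, 1.17% and 1.31%. The share was 1.57% ± 0.14 in reverse and 2.07% ± 0.16 in CR3.

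Among the complex I subunits, MT-ND5 measured 27681, 28024 and 28599 normalized reads in mCherry and 20574, 15384 and 16904 in scramble (log2 -0.68 ± 0.07, SE, limma adjusted p = 6.7e-06), and MT-ND4 fell from 65262 ± 1899 to 41847 ± 6245 (adjusted p = 2.9e-05). MT-CYB, of complex III, fell most, by 0.72 on the log2 scale, and MT-ND3 least of the called ones, by 0.39. MT-CO1, MT-CO2 and MT-CO3 of complex IV fell by 0.58, 0.71 and 0.58, and MT-ATP6 and MT-ATP8 of ATP synthase by 0.64 and 0.59. The scramble libraries differed among themselves, with replicate 1 highest and replicate 2 lowest for the 12 messages, yet none reached the lowest mCherry library. MT-ND6, the message encoded on the strand opposite to the others, was the exception, at 2299, 1348 and 2870 in mCherry and 2120, 1784 and 2410 in scramble (log2 0.01 ± 0.21, adjusted p = 0.98). Leaving out any 1 of the 6 libraries kept 12 lower, while limma without a trend kept 6. In reverse 9 of the 13 were lower than in mCherry (0.404% of all tested genes were), with a median of -0.36, and 0 of 13 were called between scramble and reverse by limma, with 8 at an unadjusted p under 0.05, all lower in scramble. The 28 nuclear-encoded subunits of the respiratory chain that were tested gave 0 calls in either direction, 4 at an unadjusted p under 0.05, and a median of 0.04. MTATP6P1 and MTND2P28, nuclear copies of mitochondrial genes that can share reads with them, were lower as well.

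**Figure D4:**
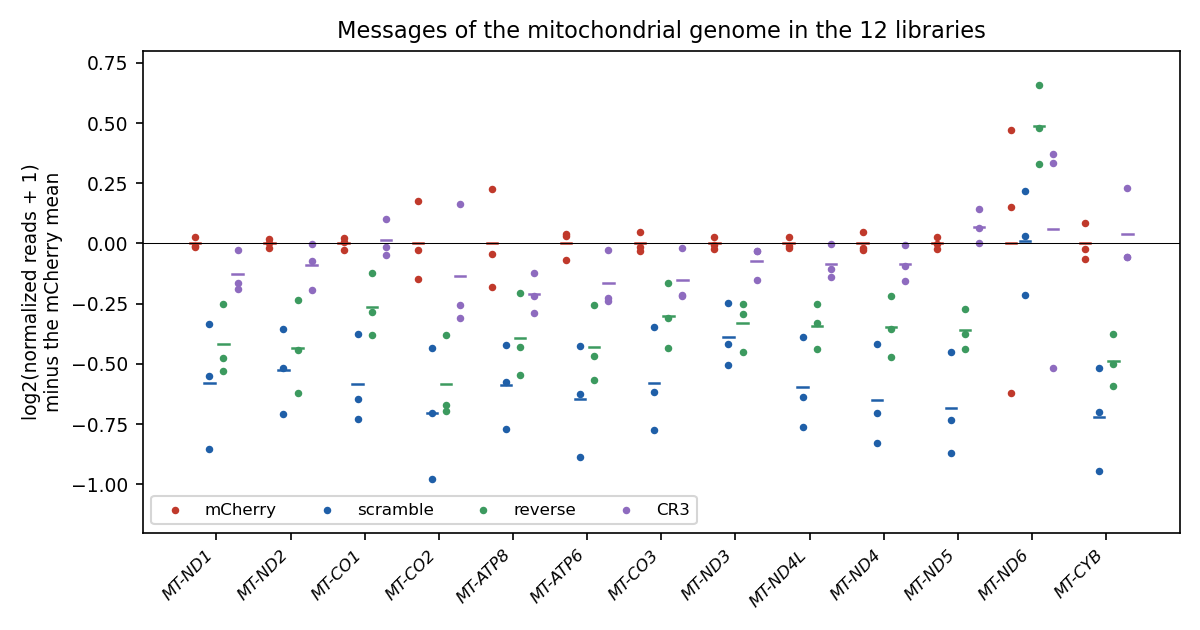
Each point is 1 library, as log2(normalized reads + 1) minus the mCherry mean of that message, and bars are group means, with the 13 messages ordered along the mitochondrial genome. In 12 messages all scramble libraries lie below all mCherry libraries and so do all reverse libraries. For MT-ND6 the scramble libraries lie among the mCherry libraries and the 3 reverse libraries lie above the mCherry mean.

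Of 20 listed targets of the hypoxia-inducible factors, 18 were tested, 5 fell and none rose, where 0.773% of all tested genes were called lower. These factors are stabilised when oxygen is short and bind the core ACGTG in promoters and enhancers. A negative difference was seen in 17 of the 18, with a median of -0.33. ANKRD37, a small ankyrin repeat protein, measured 70, 86.6 and 55.5 in mCherry and 33.6, 28 and 46.5 in scramble (log2 -0.96 ± 0.22, SE, limma adjusted p = 0.025). The mitophagy receptors BNIP3 (823 ± 9.39 and 586 ± 32.1, log2 -0.49) and BNIP3L (2256 ± 244 and 1563 ± 75, log2 -0.52) were both lower. So were EGLN1, the prolyl hydroxylase that marks the factors for destruction (2082 ± 39.4 and 1753 ± 64.6, log2 -0.25), and INSIG2, a brake on sterol synthesis (731 and 593, log2 -0.30). MIR210HG, the host of the hypoxia-induced microRNA miR-210 and no member of the list, averaged 105 ± 24.8 and 43.5 ± 12.1 (adjusted p = 0.047). Its call stayed in only 1 of the 6 fits that leave out a library. ADM (log2 -0.62, adjusted p = 0.066), KDM3A (-0.37, 0.052) and NDRG1 (-0.32, 0.069) did not pass, nor did VEGFA or SLC2A1. In reverse against mCherry 0 of the 18 were called by limma, 4 had an unadjusted p under 0.05 (9.36% of all tested genes had), and the median was -0.12. The list summed to 30317, 31771 and 26586 normalized reads in mCherry, lowest in replicate 3, the library that stood apart, and to 23545 to 24599 in scramble. The count of lower targets was 13 without mCherry replicate 3 and between 0 and 13 without any 1 of the 6, although the median stayed between -0.43 and -0.26. Limma without a trend called 0 of the 18, at the same median of -0.33.

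The core word was looked for in the 250 bases before the RefSeq start sites of these targets, as ACGTG or CACGT. It was present in 7 of the 15 tested targets with an entry, in 18.7% of all 27305 promoters of the table and in 23.6% of those of tested genes. It overlaps the E-box CACGTG, which holds it on both strands. Each of the 4 called targets with an entry held it, ANKRD37 in 2 places, 1 of them an E-box like that of BNIP3. The sites are shown on the gene's strand of GRCh38.p14 with the core in capitals, for ANKRD37 at chr4:185396670-185396694 and chr4:185396688-185396712, BNIP3 at chr10:131982042-131982066, EGLN1 at chr1:231422288-231422310 and INSIG2 at chr2:118088366-118088390.
ANKRD37, first site: gccgggctccACGTGccagtgtttg
ANKRD37, second site: gtgtttgtgtACGTGcggccgtggc
BNIP3: cacgcgccgcACGTGccacacgcac
EGLN1: gccgtggtgtACGTGcagagcgc
INSIG2: ctcgcaggtcCACGTcttattgaca
The 3 hypoxia targets whose windows hold the word without being called were P4HA1, ANGPTL4 and ERO1A. A match is a run of letters, and binding was not measured.

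Of 24 tested members of the ribosome biogenesis and RNA polymerase I list, 8 rose and none fell (0.848% of all tested genes were called higher), and all 24 had a positive difference, with a median of 0.22. NOP16, a nucleolar protein of the large ribosomal subunit, averaged 791 ± 42.9 in mCherry and 1000 ± 55.6 in scramble (log2 0.34 ± 0.07, SE, limma adjusted p = 0.0083). RRS1, a large subunit assembly factor (719 ± 66.7 and 915 ± 83, log2 0.35), TCOF1, the treacle protein of rRNA gene transcription (2672 ± 44.2 and 3232 ± 118, log2 0.27), and NOLC1, its partner (8062 ± 321 and 9354 ± 318, log2 0.21), rose too. So did PES1, UTP4, RRP12 and the polymerase I subunit POLR1B, by 0.21 to 0.26. In reverse against mCherry, a difference from the same mCherry libraries and so not independent, 23 of the 24 were positive, with a median of 0.11. By limma 0 were called there, with 11 at an unadjusted p under 0.05. Between scramble and reverse 0 of the 24 were called, with 6 at an unadjusted p under 0.05, all higher in scramble. The 39 cytosolic ribosomal protein genes gave 0 calls by limma, 0 at an unadjusted p under 0.05, with a median of 0.02.

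The lists that follow are to be read against the 0.848% of all tested genes that were called higher. Among 24 DNA replication genes, 3 rose, the helicase subunit MCM7 (6689 ± 232 and 7793 ± 254), the origin binder ORC1 (788 ± 59.1 and 993 ± 37.4) and the flap nuclease FEN1. All 24 differences were positive, with a median of 0.18. Of 25 genes of G2/M and mitosis, 24 differences were positive and 1 gene rose, UBE2C, which feeds the anaphase-promoting complex (1506 ± 39.3 and 1796 ± 30.8). Among 19 MYC targets, 3 rose, ODC1, the first enzyme of polyamine synthesis (8190 ± 195 and 9585 ± 275), PA2G4 and NOP16. Of 18 cytosolic heat shock genes, 3 rose, HSPA8, DNAJB1 and FKBP4, by 0.23, 0.18 and 0.18. The tRNA synthetases IARS and KARS (2 of 20) and the 2 chains of an amino acid transporter, SLC7A5 and SLC3A2 (2 of 20 genes of the ATF4 response), rose by 0.20, 0.19, 0.27 and 0.20. The ATF4 list went both ways, with 13 positive and 7 negative differences. Of its members 5 positive and 2 negative ones had an unadjusted limma p under 0.05. NUP85, a nuclear pore subunit picked after its values were seen (1776 ± 66.3 and 2163 ± 54.5), was the one increase under 1.5-fold that stayed called in all 6 fits without a library. By the same fits the number of members called higher ran from 0 to 16 of the ribosome biogenesis list, 0 to 12 of the replication list, 0 to 13 of the mitosis list, 0 to 7 of the MYC targets, 0 to 10 of the heat shock genes and 0 to 4 of both the synthetases and the ATF4 list. Each was highest without mCherry replicate 3. HSPA8, DNAJB1 and FKBP4 kept their call in 1 of the 6 fits. The median of the biogenesis list stayed between 0.20 and 0.24. In scramble against mCherry the medians were 0.15 for mitosis, 0.17 for MYC targets and 0.12 for heat shock genes. Those of the synthetases and the ATF4 list were 0.11 and 0.05. In reverse against mCherry the medians were 0.07 for replication, 0.09 for mitosis, 0.13 for MYC targets and 0.11 for heat shock genes. They were 0.06 for the synthetases and 0.03 for the ATF4 list. In that order, 7, 3, 9, 8, 3 and 3 members had an unadjusted p under 0.05 there. No member of these lists was called by limma in reverse against mCherry or in scramble against reverse.

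**Figure D5:**
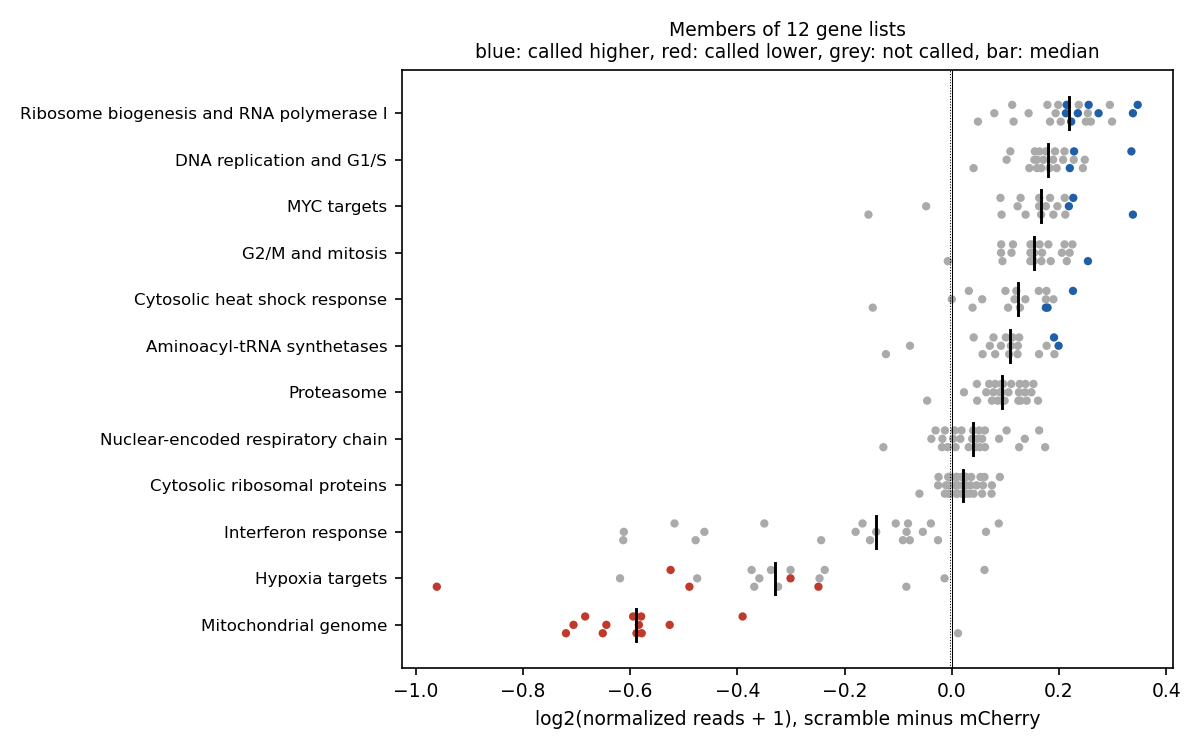
Each point is a tested member of 1 of 12 gene lists, placed by its log2 difference between scramble and mCherry, with a bar at the list's median and a dotted line at the median of all tested genes. The ribosome biogenesis list has the highest median, 0.22, with the ribosomal proteins at 0.02, the hypoxia targets at -0.33 and the mitochondrial messages at -0.59 apart from MT-ND6.

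Most stress and signalling lists gave no call with all libraries in the fit. Over all tested genes 1.62% were called and 15% had an unadjusted p under 0.05, so 0 calls in lists this short say little. That unadjusted p was reached by 32.1% of the proteasome list and by 33.3% of the immediate early genes. The lists of the unfolded protein response (18 tested), NRF2 targets (19), NF-kB targets (11), TGF-beta and BMP targets (12), immediate early genes (24), glycolysis (16), the proteasome (28), autophagy and lysosome (21), splicing factors (25), stress granule and P-body genes (21), coactivators and Mediator (23) and polyadenylated histone genes (15) each gave 0 calls by limma, with at most 9 members at an unadjusted p under 0.05 in the proteasome list and 8 among the immediate early genes. Lists of fatty acid and lipid droplet genes (17), snoRNA host genes (16), epithelial junction and keratin genes (19), extracellular matrix (16), colon cancer stem cell surface markers (10), metallothioneins (8), clustered protocadherins (6), blood (3), neural and kidney line (4) and cancer-testis genes (3) also gave 0, with 0 to 3 members each at an unadjusted p under 0.05. All 8 mesenchymal and fibroblast markers tested were negative, with a median of -0.22, 0 called and 2 at an unadjusted p under 0.05. Without mCherry replicate 3, the library that stood apart, some of these lists did hold calls. There were 4 lower in autophagy and lysosome, 4 lower among epithelial junction and keratin genes, 3 lower in glycolysis and 2 lower among fatty acid and lipid droplet genes. There were 3 higher among NRF2 targets, 3 higher in the proteasome, 2 higher among splicing factors, and 1 higher each among immediate early genes and coactivators. Of the 21 interferon genes, 19 were negative, with a median of -0.14, 0 called (2 lower without mCherry replicate 3) and 6 at an unadjusted p under 0.05. IFIT1 (314 and 228, adjusted p = 0.057) and IFI6 (879 and 630, 0.06) came closest. Of 23 p53 targets, AEN, a nuclease, rose (1157 ± 23.9 and 1435 ± 50.2) and TP53INP1, a stress-induced autophagy regulator, fell (1262 ± 23.2 and 994 ± 61.8). NT5E, the cell-surface enzyme CD73, rose among 14 YAP and TEAD targets, by 0.21. TM7SF2, a sterol reductase, fell among 23 genes of cholesterol synthesis and uptake, by 0.40, and IGF2 with EGF among 18 growth factor ligands (IGF2 1137 ± 54.6 and 940 ± 39.5). Of these, AEN and TP53INP1 kept their call in 5 of the 6 fits without a library, IGF2 in 2, and NT5E and TM7SF2 in 1.

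On the nuclear chromosomes the share of tested genes called ran from 0.799% on chromosome 19 to 2.88% on chromosome 4, and the median log2 difference of a chromosome from -0.04 to 0.02.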

How the data were processed

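PolyA RNA of 12 HCT116 libraries was analysed, 3 per construct, grouped by their titles. The submitters' processing notes name GRCh38 and, without roles, STAR, featureCounts, edgeR and DESeq2 among other tools. No version, strand setting or annotation release was found there, which leaves genes that overlap or lie antisense to another uncertain. What the authors deposited is read counts divided by a size factor per library, as found from the values themselves, and they have lost the decimal mark wherever they are 1 or more.

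Each library's worth of 1 read was found, and all 130338 non-zero cells of the 6 libraries were whole multiples of it at some power of 10 (tolerance 1e-07). The power was chosen per gene by likelihood with the group labels. In 1004 cells (0.77%) another power came within a likelihood ratio of 20, and genes with such a cell in any library were left out of tests. With the mark hidden, 97.49% of the 1-read cells that kept it were read correctly. Genes above 100 reads whose 3 counts were all multiples of 10 numbered 13 in mCherry and 14 in scramble, where chance gives 11 and 11.1.

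Tests used limma 3.58.1 in R 4.3.3 with its trend option, on the log2 of normalized reads plus 1, which understates the folds of low genes. All 12 libraries entered a model of 4 groups, with two-sided p-values adjusted by Benjamini-Hochberg over the 14617 genes tested. Folds are ratios of group means. For a group without reads a floor of 3 reads per library gives a lower bound. On simulated scramble against mCherry data (14796 genes), 37 of 50 genes changed 1.3-fold, 41 of 50 changed 1.5-fold, 49 of 50 changed 2-fold and 48 of 50 changed 4-fold were called, with 7 unchanged genes called, and 99.904% of cells were rebuilt correctly. The simulation changed no gene by more than 4-fold and held no library that stood apart, so it does not cover those cases. Python 3.11.15 with numpy 2.4.6, pandas 2.3.3 and matplotlib 3.10.9 did the rest. Coordinates are those of GENCODE 29 on GRCh38.

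Named genes were the 15 with the largest log2 difference in each direction among those called that averaged 20 normalized reads or more, did not overlap between groups and had a symbol other than a clone name, and up to 3 called members per list by p. By this rule 1 more gene was picked that is not reported here, and some other genes are not reported here either. The members, the rule and the 41 lists were chosen with earlier results of these data known. Other settings tried were scaling, pseudocount, filter, libraries in the fit, trend, voom, a replicate block, ambiguous genes kept, powers chosen without labels, and each library left out.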

Additional observations from a re-analysis of the deposited data

How the results depend on the processing

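The main counts are 124 higher and 113 lower genes. Leaving out each library in turn gave 25 to 453 higher and 59 to 383 lower genes, the highest of both without mCherry replicate 3. Limma without a trend gave 30 and 57, and a filter at a mean of 50 normalized reads, which removes the low switched genes, gave 66 lower. Scaling by library totals, median of ratios or upper quartile, pseudocounts of 0.5 and 5, no filter, the 6 libraries alone, 9 libraries without CR3, voom, ambiguous genes kept and powers chosen without labels stayed within 1.5 times the main counts, from 99 to 170 higher and 91 to 152 lower. Replicate numbers did not pair the samples: the deviations of same-numbered libraries correlated at -0.035, -0.107 and -0.025. With a replicate block, 64 genes were higher over 12 libraries and 52 over the 6 alone, and 92 and 105 lower. Powers of 10 chosen without group labels, which by construction favours 1 level per gene, reversed RASGRF2 (-1.18), ANK1 (-0.18), GALNT13 (-0.997), CDYL2 (0.16) and DLEC1 (0.66). In the other settings none of the 58 genes named by rule changed direction, and those that lost their call numbered 0 to 31, most without a trend. Depth limits the genes under 20 normalized reads, of which 11 are at least 4-fold higher and 24 lower.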
